A study of Mus musculus with 6 samples.

Results

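Pericytes of the amygdala were compared between mice that recalled a conditioned fear (FR) and mice that were never shocked (NoFC). A barcode was taken as a pericyte when it held at least 500 genes, under 6% mitochondrial UMIs (unique molecular identifiers, the counted transcript molecules), at least 10 UMIs of *Vtn* and *Rgs5* together, at most 5 of *Slc1a2* and *Slc1a3* together, under 5 of *Acta2* and under 3 of *Dcn*. It was given to a mouse when its leading hashtag had at least 10 UMIs and at least 3 times those of the next. By this rule, 2188 of 13546 barcodes were pericytes, 1511 had a hashtag call, 990 belonged to the 16 listed mice and 477 to the 8 mice compared here, 190 from FR and 287 from NoFC. These 6 genes define the cells and are not reported as results.

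The mice were wild-type C57BL/6N males that had explored the conditioning chamber on 3 days. On the next day NoFC mice entered it without a shock, whereas FR mice were shocked there and returned to it one day later for recall. The amygdala was taken 90 min after the start of behaviour and was dissociated with inhibitors of transcription and translation (actinomycin D, triptolide and anisomycin). Cells were sorted with the astrocyte antibody ACSA2, next to CD11b, CD45 and O1 stains, and were sequenced as 3 pooled libraries, so that the pericytes are those that passed an astrocyte sort. The study describes its wild-type mice as young adults and its tests as run in the light phase, and neither the age nor the hour of killing of a single mouse was given in the sources used here. Shock and recall both differ between FR and NoFC. The day of killing, which was not given for NoFC mice, may differ too, and none of these can be told apart. Library 1 held NoFC mice 1 and 2 and FR mice 1 and 2, library 2 held mouse 3 of each group and library 3 held mouse 4 of each group.

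Pericytes are mural cells that lie in the basement membrane of brain capillaries, next to the endothelium and the endfeet of astrocytes. They help to maintain the blood–brain barrier and take part in setting capillary diameter. Like most cells they carry a circadian clock, in which CLOCK and BMAL1 activate genes through E-boxes, the PER, CRY and REV-ERB proteins feed back on them, and DBP, TEF and HLF pass the rhythm to output genes. Glucocorticoids, released in daily waves and under stress, act on many of the same cells through the receptor encoded by *Nr3c1*. Heat shock proteins are chaperones whose genes are controlled by HSF1.

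The mouse of each barcode rests on a 15-base hashtag oligonucleotide. These are shown because the same 4 hashtags served both groups, each marking an NoFC mouse in one library and an FR mouse in another.
Hashtag 1 (NoFC mouse 1 and FR mouse 3): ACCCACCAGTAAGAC
Hashtag 4 (NoFC mouse 3 and FR mouse 1): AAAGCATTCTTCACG
Hashtag 7 (NoFC mouse 2 and FR mouse 4): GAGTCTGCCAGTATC
Hashtag 10 (NoFC mouse 4 and FR mouse 2): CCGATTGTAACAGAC
The capitals mark the whole barcode that was read.

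The NoFC mice gave 69, 49, 104 and 65 pericytes and the FR mice 36, 45, 56 and 53. The group means were 71.8 ± 23.2 (SD, n = 4) and 47.5 ± 8.96 (n = 4), with an exact two-sided permutation p of 0.0857 over mice, and the groups overlapped. In each library every FR mouse gave fewer pericytes than every NoFC mouse, and the permutation did not keep mice within libraries. With 4 mice against 4, the smallest p this test can give is 0.0286. The median UMIs per pericyte ranged from 4797 to 5317 in FR mice and from 5001 to 5549 in NoFC mice (exact permutation p = 0.543). Mitochondrial UMIs made up 1.75 ± 0.0734% in FR and 1.74 ± 0.104% in NoFC (exact permutation p = 0.800). Summed over pericytes, a mouse had between 191242 and 604757 UMIs. The 3 libraries shared 18 barcode sequences, of which 0 were among the 477 pericytes.

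The label of the cells was checked against marker genes. The genes of the cell rule were left out of these sums. The 13 other pericyte markers were all detected, and together they made up 15558 to 17379 CPM (counts scaled to a common total per mouse) in FR mice and 15658 to 17520 CPM in NoFC mice. Smooth muscle markers summed to at most 1055 CPM, with *Cnn1* and *Myocd* at 0. Microglial markers summed to at most 62.5 CPM, with *Tmem119*, *C1qa*, *C1qb*, *C1qc*, *Ctss* and *Aif1* at 0. Oligodendrocyte markers reached at most 21.5 CPM and neuronal markers 26.2 CPM. Of the astrocyte markers, *Aqp4* averaged 6.74 CPM and *Gja1* 17.4 CPM, and the sum of that list is not reported here. Perivascular fibroblast markers summed to 1234 to 1379 CPM in FR and 1052 to 1340.1 CPM in NoFC, with *Lum*, *Col1a1* and *Pdgfra* at 0. Red blood cell markers reached 5.23 CPM in FR and were at 0 in NoFC.

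Endothelial markers summed to 417 to 521 CPM in NoFC mice and 470 to 1141 CPM in FR mice. The highest value belonged to FR mouse 4, where 1 barcode of 8048 UMIs carried 55 UMIs of the endothelial claudin gene *Cldn5*. Without the 4 barcodes that held a *Cldn5* UMI, the FR range was 470 to 586 CPM. Calls that were lost without them are given beside their genes.

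Across 5539 genes, edgeR's quasi-likelihood test with library as a covariate called 7 genes at an adjusted p under 0.05, which is 0.126% of the genes tested. Of these, 5 fell in FR (0.0903%) and 2 rose (0.0361%). At an unadjusted p under 0.05 there were 172 genes lower in FR (3.11%) and 204 higher (3.68%). Counted by symbol, 2751 of 5538 had a fold change below 0 and 2787 above 0. The FR and NoFC mice did not overlap in 195 genes (3.52%). DESeq2 called no gene, with 100 at an unadjusted p under 0.05, and the count under other settings ran from 0 to 13.

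**Figure D1:**
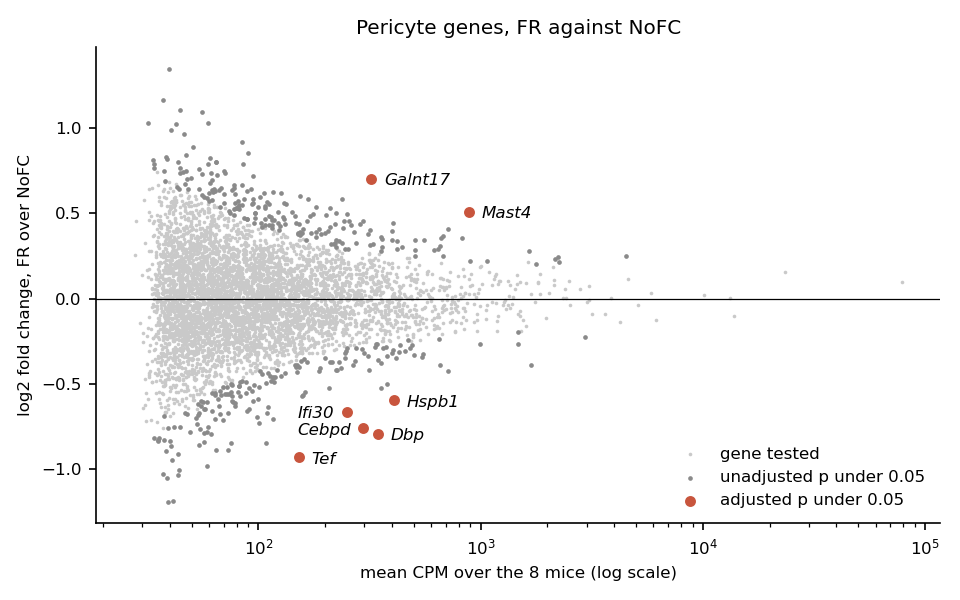
Each point is 1 gene, with its mean CPM over the 8 mice on a logarithmic x axis and its fitted log2 fold change, FR over NoFC, on the y axis. Dark points have an unadjusted p under 0.05, and the 7 named red points, 5 below 0 and 2 above, have an adjusted p under 0.05.

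The genes that fell included 2 transcription factors of the clock output. *Dbp* (D-box binding PAR bZIP factor; chr7:45705088-45710203 of GRCm38, forward strand) stood at 483, 378, 408 and 446 CPM in NoFC mice 1 to 4 and at 388, 278, 184 and 194 CPM in FR mice 1 to 4. The FR mice of libraries 2 and 3 were lowest, and FR mouse 1 lay just above NoFC mouse 2, so that the groups overlapped by this pair. *Dbp* fell by 0.79 on the log2 scale (SE 0.15, adjusted p = 0.0111). Here and below, the SE of a fitted change was derived from the edgeR test statistic and is not the spread over mice. Within libraries 1, 2 and 3 the log2 difference of mean CPM was -0.37, -1.15 and -1.21.

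*Tef* (chr15:81802421-81826863, forward strand), which encodes a factor of the same PAR bZIP family, had 213, 156, 198 and 223 CPM in NoFC mice and 92.8, 146, 107 and 76.7 CPM in FR mice. Every FR mouse lay below every NoFC mouse. The fitted fall was the steepest of the called genes (log2 fold change -0.93, SE 0.19, adjusted p = 0.0132), and *Tef* was lower in FR in each of the 3 libraries. These values rest on 286 UMIs in NoFC and 96 in FR.

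Of the other genes that fell, *Hspb1* (chr5:135887919-135889563, forward strand) encodes a small heat shock chaperone. Its levels were 523, 432, 602 and 401 CPM in NoFC and 289.9, 292, 327 and 384 CPM in FR. No FR mouse reached the lowest NoFC mouse, although the gap in library 3 was small (log2 difference -0.06 there, -0.71 in library 1 and -0.88 in library 2). The fitted log2 fold change was -0.60 (SE 0.13, adjusted p = 0.0481).

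*Cebpd* (chr16:15887286-15891031, forward strand), the gene of the transcription factor C/EBPδ and a target of glucocorticoids, had 377, 255, 359 and 495 CPM in NoFC and 104, 351, 158 and 274 CPM in FR. The groups overlapped, with FR mouse 2 above NoFC mouse 2. *Cebpd* fell by 0.76 on the log2 scale (SE 0.17, adjusted p = 0.0481). Its adjusted p was 0.0519 without the barcodes that held *Cldn5*.

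*Ifi30* (chr8:70762774-70766663, reverse strand) encodes a lysosomal thiol reductase that is best known from antigen processing. It had 283, 243, 278 and 414 CPM in NoFC against 226, 175, 176 and 201 CPM in FR. All FR mice lay below all NoFC mice, and the highest NoFC value came from mouse 4. *Ifi30* fell by 0.67 on the log2 scale (SE 0.15, adjusted p = 0.0481), and without the barcodes that held *Cldn5* its adjusted p was 0.0519.

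The 2 genes that rose were *Galnt17* and *Mast4*. *Galnt17* (chr5:130872082-131308497, reverse strand) belongs to the family of transferases that start O-linked glycosylation with N-acetylgalactosamine. It stood at 158, 230.3, 256 and 343 CPM in NoFC and 400.0, 307, 452 and 431 CPM in FR. FR mouse 2 was below NoFC mouse 4, and the other FR mice were above every NoFC mouse. *Galnt17* rose by 0.70 on the log2 scale (SE 0.14, adjusted p = 0.0132), with the smallest difference in library 3 (0.33).

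*Mast4* (chr13:102732486-103334497, reverse strand), a microtubule-associated serine/threonine kinase gene, had 717, 814, 751 and 657 CPM in NoFC and 1055, 969, 1120.4 and 1015 CPM in FR. The groups did not overlap, and the difference within libraries 1, 2 and 3 was 0.40, 0.58 and 0.63 on the log2 scale. Its fitted rise was 0.51 (SE 0.10, adjusted p = 0.0132), with 1051 UMIs behind the NoFC value and 964 behind the FR value.

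**Figure D2:**
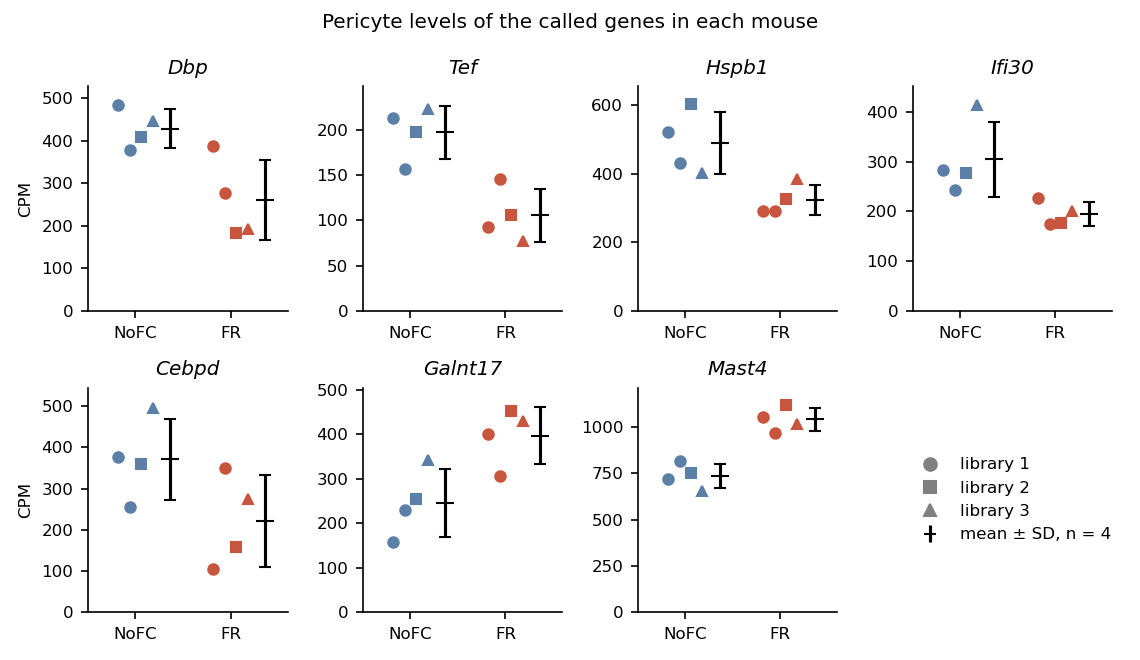
CPM of the 7 called genes (y axis) in each NoFC and FR mouse (x axis), with a symbol for each library and the mean ± SD of 4 mice beside the points. *Tef*, *Hspb1*, *Ifi30* and *Mast4* do not overlap between the groups, whereas *Dbp*, *Cebpd* and *Galnt17* do.

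The sign of each of the 7 fold changes was the same in all 25 alternative settings, whereas the calls depended on single mice. Some of these settings kept the same cells and so repeat the main fit. Leaving out NoFC mouse 1 left no call and leaving out NoFC mouse 2 gave 11. *Dbp* was called in 3 of the 8 fits that left out a mouse (adjusted p from 0.000183 to 0.173), *Galnt17* in 4, *Hspb1* in 3, *Tef*, *Mast4* and *Cebpd* in 2 each, and *Ifi30* in 1. An exact permutation of CPM over mice, without library, gave p = 0.114 for *Cebpd* and 0.0571 for *Dbp* and *Galnt17*. For *Tef*, *Hspb1*, *Ifi30* and *Mast4* the exact permutation p was 0.0286, the smallest it can give.

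The members of the clock feedback and output list were then read together. Of 14 listed genes, 9 had enough counts to be tested, and *Cry1*, *Ciart*, *Bhlhe40*, *Bhlhe41* and *Usp2*, with 25 to 80 UMIs in all, had not. All 9 had a fold change below 0, 2 were called (*Dbp* and *Tef*), and 6 were at an unadjusted p under 0.05 in the downward direction. Over all genes tested, 2751 of 5538 symbols were below 0. There, 3.11% were lower at an unadjusted p under 0.05 and 0.0903% were called lower. The median log2 fold change of the list was -0.42, beside 0.0025 over all genes tested. Over the other settings it ran from -0.54 to -0.28, and it was lowest without FR mouse 2. Within library 1 alone it was -0.29, with 7 of 9 genes below 0 and 1 at an unadjusted p under 0.05.

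*Nr1d1*, the REV-ERBα repressor gene, ranged from 209 to 316 CPM in FR and from 317 to 395 CPM in NoFC, so that the groups met but did not overlap (log2 fold change -0.42, SE 0.14, adjusted p = 0.388). *Hlf*, the third PAR bZIP gene, ranged from 301 to 482 CPM in FR and from 434 to 511 CPM in NoFC (log2 fold change -0.31, adjusted p = 0.582). Among the period genes, *Per3* had 11.0 to 63.8 CPM in FR and 50.8 to 64.7 CPM in NoFC, *Per1* had 40.4 to 87.6 and 66.9 to 133 CPM, and *Per2* had 40.6 to 97.4 and 76.0 to 84.1 CPM. Their log2 fold changes were -1.01, -0.61 and -0.23, and none was called. *Cry2*, at 56.0 ± 6.59 CPM in FR and 56.2 ± 1.95 CPM in NoFC (SD, n = 4), had a log2 fold change of -0.01, and *Nr1d2* one of -0.21.

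The positive limb of the clock could be read in 3 of 7 listed genes. *Clock* had 149 ± 46.1 CPM in FR and 131 ± 20.5 CPM in NoFC (SD, n = 4), *Rorb* 104 ± 23.4 and 75.8 ± 24.1 CPM, and *Rora* 1429.8 ± 203 and 1520.5 ± 105 CPM. None was at an unadjusted p under 0.05, and the *Rora* difference changed its sign in 4 of the other settings. *Arntl*, which encodes BMAL1, had 35 UMIs over the 8 mice and was not tested.

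Promoter stretches are shown for a clock output gene and a chaperone gene that fell, since most tested members of both lists were lower. Each is the 250 bases before an annotated RefSeq start in GRCm38.p6, read on the forward strand, with motif matches in capitals. *Tef* has a second, more upstream RefSeq start, whose window also held 1 E-box and is not shown.
Tef, chr15:81811164-81811413, E-box in capitals: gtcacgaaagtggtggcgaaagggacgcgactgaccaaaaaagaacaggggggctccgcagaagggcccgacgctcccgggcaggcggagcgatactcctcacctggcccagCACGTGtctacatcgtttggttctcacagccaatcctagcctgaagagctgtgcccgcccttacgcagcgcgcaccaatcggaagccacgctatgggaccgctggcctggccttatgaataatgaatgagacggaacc
Hspb1, chr5:135887669-135887918, heat shock motif in capitals: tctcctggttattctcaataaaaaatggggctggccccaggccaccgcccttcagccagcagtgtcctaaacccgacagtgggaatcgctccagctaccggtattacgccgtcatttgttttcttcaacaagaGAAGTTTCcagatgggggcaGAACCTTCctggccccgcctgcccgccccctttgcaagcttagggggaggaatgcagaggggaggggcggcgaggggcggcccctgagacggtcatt
The E-box searched was CACGTG, which reads the same on both strands, and it begins 138 bases before the *Tef* start. The heat shock motif was GAANNTTC, also the same on both strands and without overlap with the E-box, and its 2 matches begin 117 and 97 bases before the *Hspb1* start. CACGTG was found in 6.02% of 32851 windows of this length and GAANNTTC in 6.69%. These shares count windows, whereas the list counts that follow are of genes with a match in any of their windows. Among the tested clock genes of the feedback and output list, 8 had a window and 2 held the E-box, *Tef* and *Per1*. *Dbp*, the clock gene with the smallest p, had a window and no match. A window was at hand for 14 of the 18 tested chaperone genes, of which *Hspb1*, *Dnaja1*, *Hspd1* and *Hspe1* held the heat shock motif. The E-box was not particular to the clock list. It was also held by 3 of these 14 chaperone genes (*Calr*, *Hspd1* and *Hsph1*). Of 6 tested glucocorticoid targets with a window 1 held it (*Per1*), and so did *Ifi30* among the called genes. These matches describe letters and show no binding.

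Chaperone genes were read in the same way. Of 22 listed genes of the heat shock and unfolded protein responses, 18 were tested, 15 had a fold change below 0, and 7 were at an unadjusted p under 0.05, all downward. *Hspb1* was the one that was called. Over all genes tested, 2751 of 5538 symbols were below 0. There, 3.11% were lower at an unadjusted p under 0.05 and 0.0903% were called lower. The median was -0.25 on the log2 scale and stayed between -0.29 and -0.22 in the other settings. *Hsp90aa1*, a cytosolic HSP90 gene, had 419, 403, 428 and 421 CPM in NoFC and 319, 248, 294 and 303 CPM in FR, with no overlap (log2 fold change -0.53, SE 0.13, adjusted p = 0.132). *Hspa8*, the constitutive HSP70, had 507 to 633 CPM in FR and 670.4 to 842 CPM in NoFC (-0.39, adjusted p = 0.299). *Dnaja1*, an HSP40 co-chaperone, had 257 to 330.5 CPM and 345 to 417 CPM (-0.36, adjusted p = 0.478), and its groups did not overlap either. Among chaperones of the endoplasmic reticulum, *Hspa5* had 579.8 ± 46.5 CPM in FR and 575 ± 58.6 CPM in NoFC (SD, n = 4), and *Hsp90b1* had 594 ± 58.3 and 702 ± 46.9 CPM (-0.24, adjusted p = 0.696). The inducible *Hspa1a* and *Hspa1b* had 57 and 38 UMIs in all and were not tested. Several cytosolic chaperones have processed pseudogenes that can take reads, so that their levels are uncertain.

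Of 23 listed glucocorticoid targets, 9 were tested, 8 had a fold change below 0, 5 were at an unadjusted p under 0.05 in that direction, and *Cebpd* was called. Their median was -0.55, against -0.06 within library 1 alone, where none reached an unadjusted p of 0.05. Over all genes tested, the median was 0.0025 and 2751 of 5538 symbols were below 0. There, 3.11% were lower at an unadjusted p under 0.05 and 0.0903% were called lower. *Tsc22d3*, which encodes the glucocorticoid-induced leucine zipper protein, had 146, 90.5, 141 and 171 CPM in NoFC and 81.2, 107, 58.8 and 73.1 CPM in FR. FR mouse 2 was above NoFC mouse 2 and the other FR mice were below every NoFC mouse (log2 fold change -0.85, SE 0.22, adjusted p = 0.168). *Zbtb16* (87.6 ± 22.2 CPM in FR, 134 ± 51.7 in NoFC, SD, n = 4) and *Nfkbia* (132 ± 42.6 and 192 ± 23.1 CPM) had log2 fold changes of -0.63 and -0.55. *Per1* belongs to this list and to the clock list. The receptor gene *Nr3c1* had 210.2 ± 36.9 CPM in FR and 197 ± 25.4 CPM in NoFC, and its difference changed sign in 4 of the other settings. *Fkbp5* and *Sgk1*, with 92 and 32 UMIs, were not tested.

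**Figure D3:**
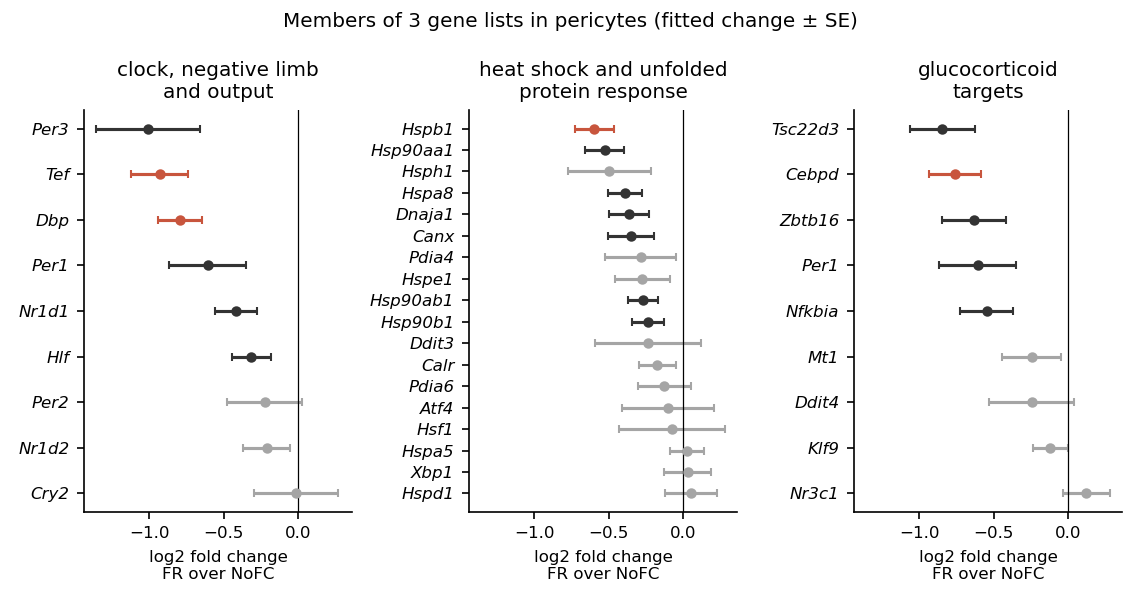
Fitted log2 fold change, FR over NoFC, with its SE derived from the test statistic (x axis) for each tested gene (y axis) of 3 lists. Red genes were called, black genes had an unadjusted p under 0.05, and grey genes did not. All 9 clock genes, 15 of 18 chaperone genes and 8 of 9 glucocorticoid targets lie below 0.

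Genes of vessel tone showed values in both directions. Of 27 listed receptors and effectors, 13 outside the cell rule were tested and none was called, with 4 higher and 1 lower at an unadjusted p under 0.05. The shares over all genes tested at that p were 3.68% higher and 3.11% lower. *Itpr1*, the inositol trisphosphate receptor that releases calcium from stores, had 514, 646, 649 and 576 CPM in NoFC and 696, 779, 830.2 and 756 CPM in FR, without overlap (log2 fold change 0.37, SE 0.11, adjusted p = 0.299). *Npy1r*, a neuropeptide Y receptor gene, had 75.4 to 161 CPM in FR and 42.6 to 97.1 CPM in NoFC (0.72, adjusted p = 0.308). *Prkg1*, the cGMP-dependent kinase, had 2296 to 2608 and 1933 to 2373 CPM (0.22), and *Pde3a*, a cAMP phosphodiesterase, 279.9 ± 95.9 and 207 ± 63.8 CPM (0.45). In the other direction, *Rgs4*, a brake on G protein signalling, had 1333 to 1699 CPM in FR and 1374 to 2423 CPM in NoFC (-0.39, SE 0.11, adjusted p = 0.239). *Rgs4* passed the test without NoFC mouse 2, without FR mouse 2 and without a filter on low counts.

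The contractile list had 21 tested genes, of which 18 were below 0, 1 was at an unadjusted p under 0.05 and none was called. Its median was -0.11, beside 0.0025 over all genes tested, where 2751 of 5538 symbols were below 0. *Tpm4*, a tropomyosin gene, had 193 ± 22.5 CPM in FR and 254 ± 48.5 CPM in NoFC (SD, n = 4, log2 fold change -0.42, adjusted p = 0.478). Ion channel genes were close between the groups. The subunits of the ATP-sensitive potassium channel of mural cells, *Kcnj8* and *Abcc9*, had 1157 ± 158 and 1899 ± 234 CPM in FR, and 1235 ± 237 and 2048 ± 231 CPM in NoFC. Both differences changed sign in 4 settings. The calcium-permeable channel gene *Trpc4* (487 ± 38.1 CPM in FR, 560.3 ± 74.0 in NoFC) had a log2 fold change of -0.18.

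*Pdgfrb*, the receptor through which endothelial PDGF-B recruits pericytes, had 1939 ± 41.9 CPM in FR and 1759 ± 135 CPM in NoFC (SD, n = 4, adjusted p = 0.820). *Notch3* had 1149 ± 57.9 and 1092 ± 98.6 CPM. Of the 19 tested genes of PDGF, Notch, TGF-β and angiopoietin signalling none was at an unadjusted p under 0.05, and *Bmpr2* came nearest of those lower (-0.26). Among mural transcription factors, *Foxs1* had 63.8, 97.4, 114 and 150 CPM in FR mice 1 to 4 and 76.0, 86.4, 58.0 and 38.8 CPM in NoFC mice 1 to 4 (0.79, adjusted p = 0.308), and *Foxc1* had 338 ± 45.0 and 423 ± 24.6 CPM (-0.34, adjusted p = 0.510). In the basement membrane list, 3 of 18 tested genes were higher and 1 was lower at an unadjusted p under 0.05 (3.68% and 3.11% over all genes tested). *Col5a3*, a fibrillar collagen chain, had 53.6 to 69.8 CPM in FR and 20.0 to 49.4 CPM in NoFC, on 94 UMIs in all (1.10, SE 0.33, adjusted p = 0.299). *Timp3*, a metalloproteinase inhibitor, had 362 ± 103 and 444 ± 131 CPM (-0.30).

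Among transporters, *Slc6a13*, the GABA transporter GAT2, had 179.7, 189.9, 169 and 161 CPM in FR and 137, 139.8, 127 and 129 CPM in NoFC. The groups did not overlap, yet the difference was small (0.39, adjusted p = 0.641). *Slc6a13* is also on the perivascular fibroblast marker list. All 5 tested markers of that list had a fold change above 0, as had 2787 of 5538 symbols over all genes tested. Only 1 of the 5, *Slc6a13*, was at an unadjusted p under 0.05, and none was called. *Slc30a10*, a manganese exporter, did not overlap in the other direction, with 507 to 569.6 CPM in FR and 582 to 683 CPM in NoFC (-0.21, adjusted p = 0.773). None of the 14 tested transporters was called.

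Many immediate early genes had few or no counts in pericytes of either group. *Fos*, *Fosb*, *Arc*, *Npas4*, *Nr4a2* and *Nr4a3* had 0 UMIs over the 477 cells, and 9 of 30 listed genes had enough counts to be tested. Of these, 7 had a fold change below 0, 1 was at an unadjusted p under 0.05 and none was called, with a median of -0.24 on the log2 scale. Over all genes tested, the median was 0.0025, 2751 of 5538 symbols were below 0 and 3.11% were lower at that p. *Jund* had 228 ± 77.3 CPM in FR and 305 ± 61.2 CPM in NoFC (SD, n = 4, -0.39, adjusted p = 0.608), and *Zfp36* 55.5 ± 14.9 and 44.0 ± 12.9 CPM.

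None of the genes of energy metabolism and translation was called. Over all genes tested, 2751 of 5538 symbols were below 0, and 3.11% were lower at an unadjusted p under 0.05. Of 12 tested glycolytic genes, 11 had a fold change below 0 and 3 were at an unadjusted p under 0.05, all downward, with a median of -0.18. *Aldoa*, the gene of aldolase A, had 484 ± 33.0 CPM in FR and 611 ± 69.9 CPM in NoFC (-0.34, adjusted p = 0.421), and *Ldhb* had 95.7 ± 23.2 and 89.8 ± 27.7 CPM. In the nuclear-encoded respiratory chain, 58 of 83 tested genes were below 0, with a median of -0.11, and at an unadjusted p under 0.05 there were 7 lower and 1 higher. *Sdhb*, of complex II, had 87.0, 73.0, 107 and 84.0 CPM in FR and 139.8, 136, 132 and 171 CPM in NoFC, without overlap (-0.70, SE 0.20, adjusted p = 0.270), whereas *Ndufa10*, of complex I, was higher in each FR mouse than in any NoFC mouse (112 ± 6.53 and 80.1 ± 17.6 CPM, adjusted p = 0.696). Of 80 tested ribosomal protein genes, 61 were below 0, with a median of -0.07 and 4 lower at an unadjusted p under 0.05, among them *Rplp2* (446 ± 41.1 and 559.6 ± 65.9 CPM). None was higher at that p, and *Rps27* came nearest of those above 0 (606 ± 23.6 and 544 ± 37.6 CPM). The 13 mitochondrial transcripts had a median of 0.03, and *mt-Nd4* (0.09) and *mt-Nd6* (-0.53) were not called.

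Of the remaining lists, none held a called gene. *Ifi30*, which was called lower, is not a member of the interferon, chemokine and antigen presentation list. The median was 0.05 for interferon, chemokine and antigen presentation genes, where *Ifitm1* had 522 to 720.0 CPM in FR and 753 to 877 CPM in NoFC, without overlap (-0.42, SE 0.11, adjusted p = 0.177), and *Cxcl12* had 249 ± 44.2 and 201 ± 32.6 CPM. It was -0.17 for 6 hypoxia targets and ran from -0.39 to 0.37 over the settings, with *Bnip3* at 52.9 ± 21.8 and 33.4 ± 8.65 CPM and *Hif1a* at 114 ± 24.0 and 142 ± 12.2 CPM. It was 0.08 for 6 genes of IGF binding, where *Igfbp7* had 3517 ± 178 and 3741 ± 105 CPM and *Igf2r* 171 ± 24.7 and 135 ± 41.0 CPM. It was 0.04 for 18 genes of cAMP signalling, where *Pde10a*, a phosphodiesterase of both cyclic nucleotides, had 34.8, 43.8, 139.6 and 80.4 CPM in FR and 88.1, 90.5, 161 and 168 CPM in NoFC (-0.73, adjusted p = 0.299).

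**Figure D4:**
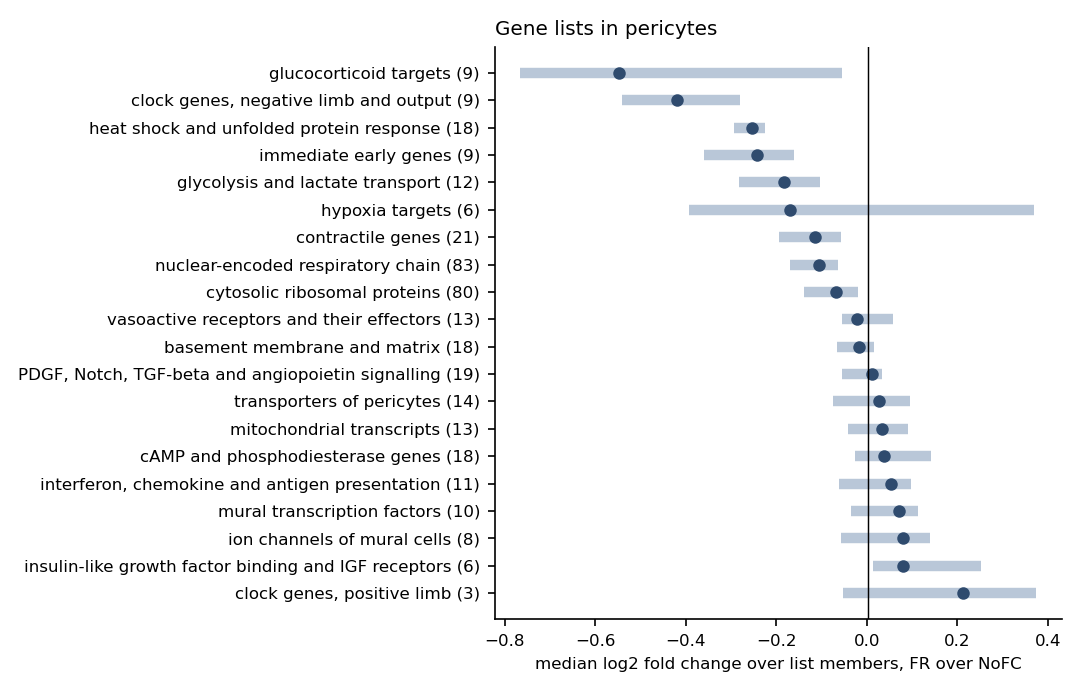
Median log2 fold change, FR over NoFC (x axis), over the tested members of each list (y axis, number tested in brackets). Dots are the values reported, bands run from the lowest to the highest median over 25 other settings, and the vertical line is the median of all genes tested. The glucocorticoid, clock feedback, heat shock and immediate early lists lie furthest below 0.

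Below the threshold, genes among those with the smallest p in each direction are given as values. On the higher side, *Neo1*, a receptor of netrins and repulsive guidance molecules, had 57.9 ± 11.3 CPM in FR and 21.6 ± 4.17 CPM in NoFC (adjusted p = 0.142). *Lurap1l* had 76.5 ± 19.8 and 34.4 ± 4.62 CPM, *Avl9* 79.4 ± 16.1 and 39.6 ± 7.06 CPM, and *Bmt2* 114 ± 24.1 and 65.6 ± 21.3 CPM. *Gpc6*, a glypican, had 812 ± 140 and 609 ± 88.5 CPM, and *Psd3*, an exchange factor for ARF6, 465 ± 39.1 and 343 ± 46.6 CPM. *Neo1*, *Lurap1l*, *Avl9* and *Psd3* did not overlap between the groups, which held for 3.52% of all genes tested. They were picked by their p in the same comparison, so that this adds no support. On the lower side, *Ankrd12* had 318 ± 82.1 CPM in FR and 440.0 ± 73.2 CPM in NoFC, also without overlap (adjusted p = 0.189). *Neo1* and *Lurap1l* rest on 85 and 123 UMIs.

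The deposited table also holds mice killed after conditioning (FC) and conditioned mice that stayed in the home cage on the next day (NoFR), with 291 and 222 pericytes. FC mice came from libraries 1 and 2 only, and NoFR mice from libraries 1 and 3 only. The CPM means and ranges below are not adjusted for library, whereas the fit is. In one fit over the 16 mice, 6337 genes were tested, and FR was compared with the same NoFC mice as the other groups, so that these values share their controls and are given side by side. *Dbp* averaged 419 ± 44.7 CPM in NoFC mice, 294 ± 20.2 CPM after FC, 99.0 ± 41.5 CPM in NoFR mice and 255 ± 92.9 CPM after FR (SD, n = 4 each). NoFR mice ranged from 62.3 to 159 CPM, below the lowest FR mouse (180.3 CPM), and *Dbp* differed between FR and NoFR (log2 fold change 1.32, SE 0.21, adjusted p = 7.88e-05). *Tef* had 193 ± 28.7, 143 ± 30.6, 64.0 ± 22.4 and 103 ± 28.9 CPM in the same order. *Hspb1* had 478 ± 89.0, 370.4 ± 132, 273 ± 31.2 and 316 ± 42.2 CPM, and *Cebpd* 363 ± 96.0, 295 ± 17.8, 206 ± 28.2 and 216 ± 108 CPM. *Ifi30* had 297 ± 73.6, 279 ± 42.0, 142 ± 34.8 and 190.2 ± 23.5 CPM. *Galnt17* had 241 ± 74.5, 338 ± 29.6, 421 ± 56.4 and 388 ± 63.3 CPM, and *Mast4* 718 ± 64.2, 753 ± 79.6, 1112 ± 201 and 1017 ± 66.3 CPM. In that fit, edgeR called 5 genes between FR and NoFC (0.0789% of those tested), and *Hspb1* (adjusted p = 0.128) and *Ifi30* (adjusted p = 0.104) were no longer among them. Between FR and FC it called no gene, with 327 at an unadjusted p under 0.05. Between FR and NoFR it called 11 genes (0.174%), of the 7 only *Dbp*. Between NoFR and NoFC it called 77 genes (1.22%), among them all 7, each in the same direction as in FR. Their edgeR adjusted p there ran from 1.69e-13 for *Dbp* to 0.00229 for *Hspb1*.

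**Figure D5:**
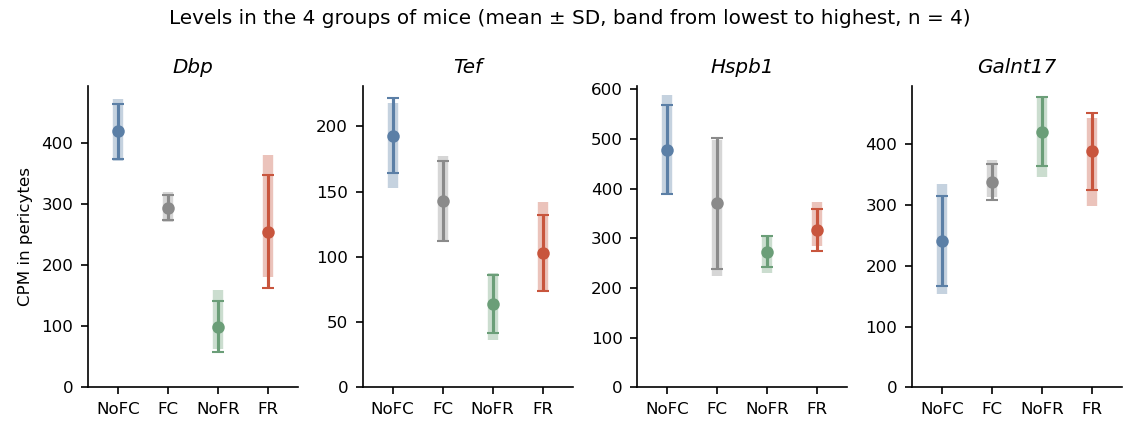
CPM in pericytes (y axis) of *Dbp*, *Tef*, *Hspb1* and *Galnt17* in the 4 groups of mice (x axis), from the fit over 16 mice. Points and bars are the mean ± SD of 4 mice and pale bands run from the lowest to the highest mouse. NoFR lies lowest for *Dbp*, *Tef* and *Hspb1*, and NoFC lies lowest for *Galnt17*.

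Over the clock feedback and output list, the median log2 fold change against NoFC was -0.24 for FC, -1.16 for NoFR and -0.42 for FR, with 0, 8 and 2 of the 9 genes called, all downward. Over all genes, 0 were called for FC (290 at an unadjusted p under 0.05), 45 were called lower for NoFR (0.71%) and 3 were called lower for FR (0.0473%). For glucocorticoid targets it was -0.11, -0.93 and -0.53, and for chaperone genes -0.19, -0.28 and -0.25.

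Whether the change differed between pericytes and astrocytes of the same mice was asked in one model with an interaction term and a block for the mouse. Astrocyte barcodes, with at least 10 UMIs of *Slc1a2* and *Slc1a3* and at most 1 of *Vtn* and *Rgs5*, were few under the same hashtag rule, 61 in FR and 19 in NoFC mice with 2 to 42 a mouse. Of 5786 genes, none was called by edgeR and 141 were at an unadjusted p under 0.05. The log2 fold change in pericytes minus that in astrocytes was -1.13 (SE 0.76) for *Dbp* and -0.95 (SE 0.65) for *Tef*, which this depth could not tell from 0. With 5 hashtag UMIs and 2 times the next, there were 360 astrocytes in FR and 129 in NoFC mice. FR mouse 3 gave 286 of the 360 and NoFC mouse 3 gave 70 of the 129. In that fit 1 gene was called, *Kcnt2*. The values were -0.66 (SE 0.32) for *Dbp* and -0.93 (SE 0.30) for *Tef*, neither of them called.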

How the data were processed

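For each barcode of 3 pooled 10x Genomics libraries, the authors deposited raw UMI counts of genes and hashtags, together with a table that ties each hashtag and library to a mouse and its group. Their notes name Cell Ranger 3.0 and mm10, whereas the matrix headers name 7.0.0. Neither the labels nor the paper say whether intronic reads were counted, which would shift the levels of long genes. The hashtag table names a sequencing run, used to join it to the libraries.

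Counts were summed per mouse over pericytes, filtered with filterByExpr (minimum count 10), scaled with TMM and fitted in edgeR 4.0.16 with group and library, with Benjamini-Hochberg adjustment. The SE of a fitted change is its absolute log2 value over the square root of the edgeR F statistic. CPM of genes use TMM and tested genes, and CPM of marker lists use every gene. No doublet caller was run beyond the hashtag rule. The step was tested on simulated data. The pericyte rule, the lists and the tests were chosen with earlier results of these data known. Named genes were those called (up to 15 in each direction), the 10 of smallest p in a direction with fewer than 10 calls, the member of each list with the smallest p in each direction, 4 pericyte genes and, for the interaction, up to 5 called in each direction. List genes outside this rule were named after their values were seen. Some genes that the rule or the lists hold are not reported here. Positions are from GENCODE vM21. DESeq2, limma-voom, other filters, scalings and cell rules, and leaving out each mouse were alternatives.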

Additional observations from a re-analysis of the deposited data

Results flagged for a closer look

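In 5 genes, 1 mouse of a group of 4 stood apart from the others by Dixon's criterion. *Lurap1l* was at 106 CPM in FR mouse 4, against 62.4 to 69.6 CPM in the other FR mice. In NoFC mice, *Nr3c1* was at 234 CPM in mouse 2 (others 179.6 to 188 CPM), *Myl12b* at 219 CPM in mouse 3 (others 181 to 185 CPM), *Pdgfrb* at 1961 CPM in mouse 4 (others 1678 to 1705 CPM) and *Hif1a* at 123 CPM in mouse 2 (others 145 to 149 CPM). These are 5 of 122 groups checked, and chance flags about 1 in 20.

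A further 521 pericytes carried a hashtag call that the table lists for no mouse of their library. They entered no comparison.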

How the results depend on the processing

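All 7 called genes kept their direction in all 25 other settings, and 90 of the 175 pairs of a called gene and a setting kept the call. The settings with at least 1000 genes per barcode and without barcodes shared between libraries kept the same 190 FR and 287 NoFC pericytes. Their fits repeat the main one, and their pairs are counted in these numbers. The count of 7 calls became 4 with DESeq2 size factors, 12 without a filter on low counts, 13 with at most 1 UMI of *Slc1a2* and *Slc1a3*, 3 with at least 30 UMIs of *Vtn* and *Rgs5*, 0 with DESeq2 (100 at an unadjusted p under 0.05) and 0 with 20 hashtag UMIs and 5 times the next (174 at an unadjusted p under 0.05, 2672 genes tested). It ran from 0 to 11 when a mouse was left out: 0 without NoFC mouse 1, 11 without NoFC mouse 2, 2 without NoFC mouse 3, NoFC mouse 4 or FR mouse 3, 1 without FR mouse 1, 7 without FR mouse 2 and 4 without FR mouse 4. Without NoFC mouse 3, and also without FR mouse 3, the 2 calls were *Gm47283* and *Spp1*, and none of the 7 was called. Leaving out mouse 3 or 4 of a group leaves its library without a partner, and then neither mouse bears on the change. Chosen after seeing the data, the fit within library 1 called 1 gene, *Gm47283*, and the fit with a block for the mouse number called 0, with 370 at an unadjusted p under 0.05. Mouse 3 of each group shared library 2 and mouse 4 of each group shared library 3. Deviations of same-numbered mice correlated at -0.013 to 0.035, and 4 of 8 mice correlated best with their own number. These values do not settle whether the mice were paired beyond the library. The interaction gave 1 call with 5 hashtag UMIs and 2 times the next, and 0 without the block for the mouse (259 at an unadjusted p under 0.05).

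Only 9 of 56 named genes, none of them called, changed sign in some setting. With 20 hashtag UMIs the log2 fold change was -0.20 for *Nr3c1*, 0.087 for *Rora*, 0.025 for *Bmpr2*, -0.38 for *Hspd1*, -0.067 for *Igf2r*, 0.011 for *Kcnj8* and 0.025 for *Abcc9*. With at most 1 *Slc1a2* and *Slc1a3* UMI it was 0.014 for *Rora* and -0.051 for *Myl12b*, and within library 1 it was -0.047 for *Nr3c1*, 0.029 for *Kcnj8* and 0.11 for *Abcc9*. When a mouse was left out it ran from -0.010 to 0.20 for *Nr3c1*, -0.20 to 0.022 for *Rora*, -0.024 to 0.14 for *Hspd1*, -0.079 to 0.30 for *Ldhb*, -0.22 to 0.077 for *Kcnj8* and -0.18 to 0.043 for *Abcc9*. The difference in mitochondrial share, 0.0099 percentage points, was -0.0235 with 5 hashtag UMIs. The causes were not tested. Low counts limit what can be seen: 5539 genes could be tested.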
